A study of Caenorhabditis elegans with 9 samples.

Results

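The genes described here encode small secreted peptides that Caenorhabditis elegans makes largely in its epidermis. They were taken by symbol from the deposited table of FPKM (fragments scaled for transcript length and for the fragments mapped per library). The rule took every cnc gene (caenacins), every fip gene (fungus-induced proteins), every fipr gene (named as related to the fip genes) and nlp-24 to nlp-34. It found 58 of the 20389 genes listed: 11 nlp, 11 cnc, 7 fip and 29 fipr genes.

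In the worm, the epidermis is the surface that meets fungi and wounds, and several of these peptides are made there in larger amounts after fungal infection or injury. For the nlp-29 group, damage is relayed by the receptor DCAR-1, G-protein signalling, the adaptor TIR-1 and the p38 kinase PMK-1 to the STAT-like factor STA-2. For some cnc genes, cnc-2 above all, the signal is the TGF-beta ligand DBL-1, which is made by neurons. Loss of the annular furrow collagens of the cuticle and osmotic stress are also known to raise nlp-29.

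RNA was sequenced from whole L2 larvae of 3 genotypes, with 3 libraries each. The first carries rmSi1[hsf-1::gfp] in the hsf-1(ok600) background (strain AM1061, called the transgenic line). The second is homozygous for hsf-1(ok600), a mutant allele of the gene for the heat shock factor HSF-1, and was collected as GFP-negative young larvae from the balanced strain OG576, hsf-1(ok600)I/hT2 (called the mutant). The hT2 balancer of that strain carries bli-4(e937), let-?(q782) and the GFP reporters of qIs48, by whose absence homozygotes were picked. The third is wild type (N2). Each library pooled 500 larvae from several collections, taken 30 h after an egg lay of 2 h, and the stated temperature was 20 °C. No infection or wounding is named in the labels.

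The deposited tables give a single FPKM for each gene in each genotype, over its 3 libraries at once, and thus no spread between libraries. Brackets after an FPKM hold the authors' own lower and upper bounds, for which no confidence level is named. The targeted gene hsf-1 was at 69.3 FPKM (29.4 to 109) in transgenic larvae, 21.4 FPKM (6.52 to 36.4) in mutants and 25.3 FPKM (7.62 to 43.1) in N2. These are levels of the gene as a whole and say nothing of the deleted stretch. Markers of the epidermis, intestine, neurons, body wall muscle and pharynx were all present, each of those found being at 1 FPKM or more in every genotype. Of 6 germ line markers, 5 were at 1 FPKM or more in every genotype. The other, nos-2, was at 0.0284 FPKM in the transgenic line, 0.136 in the mutant and 0 in N2. RNA of whole larvae does not show in which tissue the peptide genes were expressed. In whole larvae, fewer cells of a type and less RNA per cell cannot be told apart, and neither can a difference in genotype from one in developmental stage.

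Of the 58 peptide genes, 33 reached 1 FPKM in at least 1 genotype and 23 reached 5 FPKM, while 15 were listed at 0 in all of them and 10 had a highest value above 0 but below 1. The families differed in this. Of the 11 nlp genes, 10 were at 5 FPKM or more in every genotype, and nlp-32 alone stayed below 1. Of the 29 fipr genes, 19 were listed at 0 in the transgenic line, 16 in the mutant and 19 in N2. Of the 11 cnc genes, 4 were listed at 0 in the transgenic line, 3 in the mutant and 5 in N2, and of the 7 fip genes 2, 2 and 1 were, in the same order of genotypes.

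**Figure D1:**
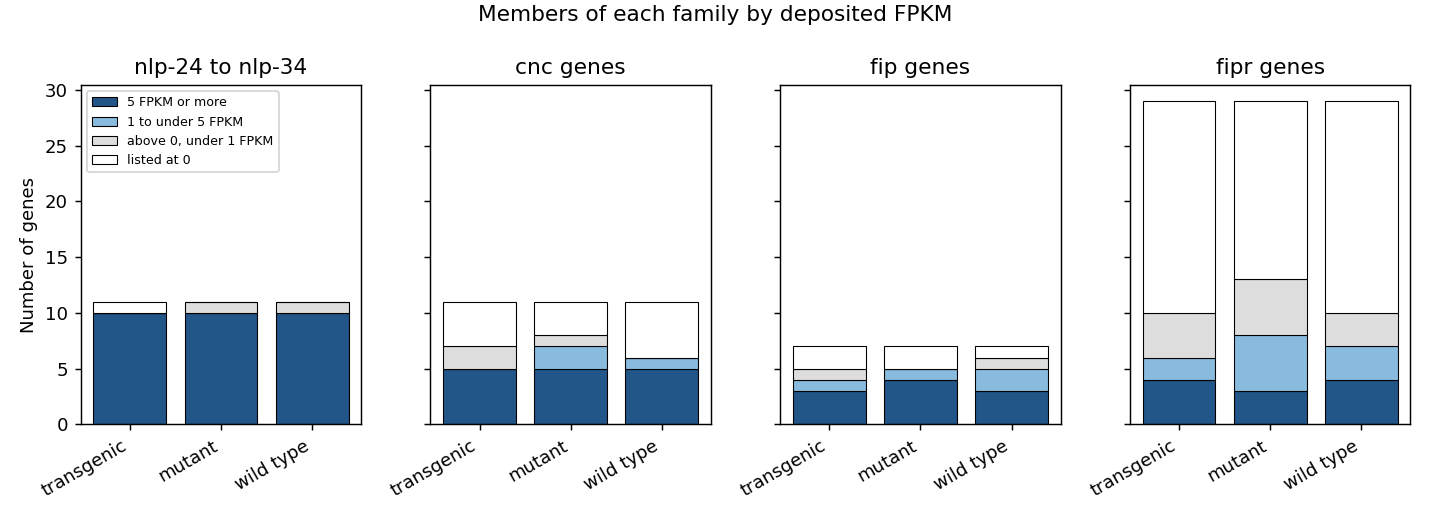
Number of genes (vertical axis) of each peptide family by deposited FPKM in the transgenic line, the mutant and wild type. Of the nlp genes 10 of 11 are at 5 FPKM or more in each genotype, while 16 to 19 of the 29 fipr genes are listed at 0.

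A few genes gave most of the peptide RNA. The most abundant was fipr-21 (F41E7.5, ce10 chromosome X, 10304447 to 10304888), at 973 FPKM (319 to 1154) in the transgenic line, 956 FPKM (315 to 1129) in the mutant and 959 FPKM (310.5 to 1120) in wild type. These levels are nearly equal, and the intervals overlap almost wholly. Among all genes, fipr-21 ranked 202 by FPKM in the transgenic line, 178 in the mutant and 180 in wild type. It was followed by nlp-33 and nlp-24. These 3 genes held 69.3% of the summed FPKM of the peptide genes in the transgenic line, 56.8% in the mutant and 64.4% in wild type. The sums were 3277, 3704 and 3803 FPKM in those genotypes.

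nlp-33 (T19C4.7, chromosome V, 11147326 to 11147792) is induced in the epidermis with nlp-29. It was at 674 FPKM (147 to 714) in the transgenic line, 782 FPKM (179 to 724) in the mutant and 620.0 FPKM (134.8 to 577) in wild type. In mutant and wild type the value lies above the upper end of its own interval, and nlp-33 is the only peptide gene for which this occurs. The bounds of these short genes are often lopsided. The exonic length in Ensembl release 115 had a median of 342 bases over the 58 genes and of 1183 bases over 19902 genes. These lengths need not be those behind the deposited FPKM. For nlp-25 the length is 1668 bases, more than its deposited locus can hold (19607481 to 19608380), so its length class below is unsure. Of the 16 peptide genes of at least 20 FPKM in wild type with a lower bound above 0, the value divided by the midpoint of its interval had a median of 1.18 (quartiles 1.02 and 1.34). The same ratio was 1.03 (1.00 and 1.34) in 85 genes shorter than 350 bases, 6 of these peptide genes among them. It was 1.00 (1.00 and 1.04) in 205 genes of 350 to under 500 bases, which hold 8 of the peptide genes, and 1.00 in 1762 genes of 1000 to under 2000 bases.

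**Figure D2:**
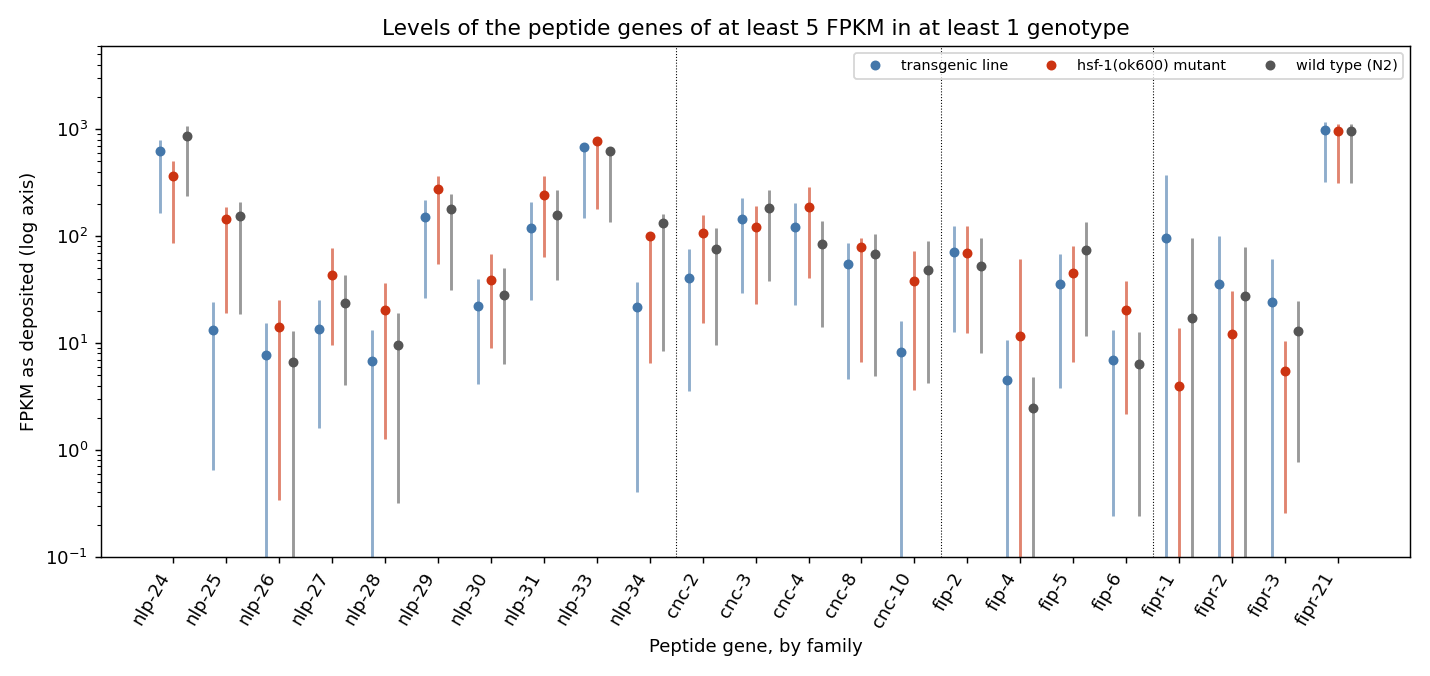
Deposited FPKM (log axis) of the 23 peptide genes that reached 5 FPKM, with points for the value and lines for the deposited interval, in the transgenic line (left), the mutant (middle) and wild type (right of each triplet). Lines that run off the lower edge reach to 0 or below 0.1 FPKM, and the intervals of all genotypes overlap for every gene.

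Mutant larvae were set against wild type to see which peptide genes differ with the hsf-1 genotype. A single peptide gene passed, and it fell: nlp-24 (F35B12.7), for a YGGY-type peptide that has been described as an opioid-like signal promoting feeding in starved worms. nlp-24 was at 624 FPKM (163 to 788) in the transgenic line, 367 FPKM (86.2 to 503) in the mutant and 871 FPKM (237 to 1060.1) in wild type. The mutant is lowest and the transgenic line lies between, with overlapping intervals. The level in the mutant was 2.37-fold lower than in wild type, with p = 5e-05 and q = 0.00249 in the authors' deposited table, where 5e-05 is the smallest p given and is shared by 253 genes. The locus of nlp-24 in the files (chromosome V, 11616265 to 11618248) is shared with the globin gene glb-15, which was at 2.58 FPKM in the transgenic line, 5.02 in the mutant and 1.84 in wild type.

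Of the 58 genes, 24 were tested in the authors' deposited table, where a gene is called here at a q of at most 0.05 with 1 FPKM or more in either genotype. The other 34 had highest values of at most 3.43 FPKM. With this rule 0 rose and 1 fell, against 2.93% of the 12615 tested genes that rose and 2.9% that fell. At an unadjusted p under 0.05 in the authors' deposited table (Cuffdiff), 1 gene was higher and 1 lower, beside 19.5% of all tested genes in either direction. The higher one was cnc-4, with p = 0.011 and q = 0.109 in the authors' deposited table (Cuffdiff). Intervals of mutant and wild type were apart for 0 peptide genes and for 0.887% of the 13185 genes of 1 FPKM or more.

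The nlp-29 group, the best known of these genes, lies on chromosome V between 3978811 and 3989755, within 10.9 kb. In chromosomal order it holds nlp-34, on the minus strand, and nlp-31, nlp-30, nlp-29, nlp-28 and nlp-27 on the plus strand. All 6 genes are alone at their loci in the files. nlp-29 (B0213.4), the common reporter of fungal infection and wounding, was at 151 FPKM (26.3 to 218) in the transgenic line, 277 FPKM (54.6 to 365) in the mutant and 178 FPKM (31.5 to 249) in wild type. nlp-31 (B0213.6), whose peptide has antifungal activity, was at 119.1 FPKM (25.3 to 207), 241 FPKM (63.4 to 363) and 158 FPKM (38.8 to 268) in the same order. In both the mutant is highest and the transgenic line lowest, and all intervals overlap.

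The 3 weaker genes of the group showed the same order of genotypes. nlp-30 (B0213.5) was at 22.2 FPKM (4.15 to 40.0) in the transgenic line, 38.4 FPKM (8.89 to 67.9) in the mutant and 28.2 FPKM (6.37 to 50.1) in wild type. nlp-27 (B0213.2) was at 13.4 FPKM (1.59 to 25.4), 43.5 FPKM (9.53 to 77.3) and 23.5 FPKM (4.06 to 42.9). nlp-28 (B0213.3) was at 6.74 FPKM (0 to 13.3), 20.2 FPKM (1.27 to 36.7) and 9.52 FPKM (0.317 to 19.0). Thus nlp-27 to nlp-31 lay 1.36-fold to 2.12-fold higher in the mutant than in wild type, and none passed. Their q-values in the authors' deposited table were 0.369 for nlp-27, 0.539 for nlp-28, 0.36 for nlp-29, 0.641 for nlp-30 and 0.334 for nlp-31.

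nlp-34 (B0213.17), at the edge of the group, had another order. It was at 21.6 FPKM (0.404 to 37.2) in the transgenic line, 99.2 FPKM (6.47 to 99.5) in the mutant and 133 FPKM (8.49 to 160) in wild type. The transgenic line was 4.599-fold lower than the mutant and 6.17-fold lower than wild type, and its interval overlapped both others. All 6 genes of the group lay lower in the transgenic line than in the mutant, by ratios of 0.217 to 0.577, and lower than in wild type, by ratios of 0.162 to 0.851. No test of the transgenic line was used here, so these are levels and not calls.

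**Figure D3:**
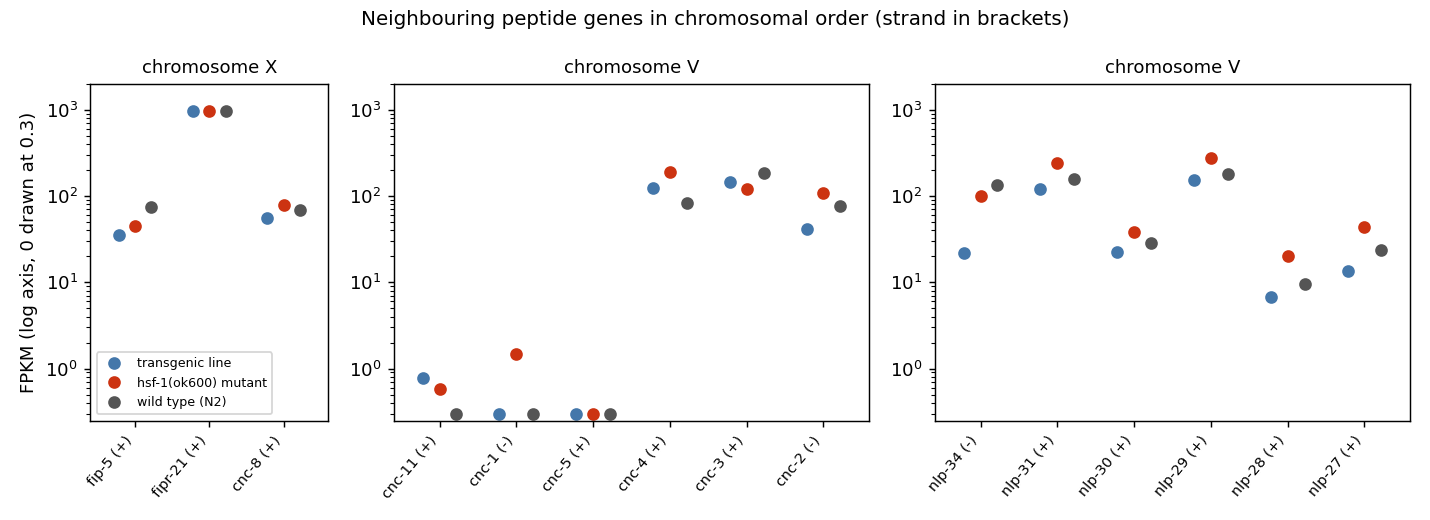
Deposited FPKM (log axis, 0 drawn at 0.3) of 3 groups of neighbouring peptide genes in chromosomal order, with the transgenic line left, the mutant in the middle and wild type right. In the nlp group (right panel) the transgenic line is lowest for all 6 genes, and in the cnc group (middle panel) 3 genes are at 40.9 FPKM or more and 3 at 1.48 FPKM or less.

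The remaining nlp genes were nlp-25 and nlp-26, which are neighbours on chromosome V, and nlp-32. nlp-25 (Y43F8C.1, 19607481 to 19608380) was at 13.1 FPKM (0.649 to 24.3) in the transgenic line, 145 FPKM (19.1 to 186) in the mutant and 154 FPKM (18.5 to 210.2) in wild type. Mutant and wild type were nearly level, while the transgenic line was 11.1-fold lower than the mutant and 11.7-fold lower than wild type, with narrowly overlapping intervals. Its neighbour nlp-26 (Y43F8C.2) was at 7.80 FPKM (0 to 15.4), 14 FPKM (0.343 to 25.1) and 6.65 FPKM (0 to 13) in the same order, and so did not share that pattern. nlp-32 was listed at 0 in the transgenic line, at 0.28 FPKM in the mutant and at 0.355 FPKM in wild type.

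Over the whole family, the median difference on the log2(FPKM + 1) scale was −0.87 between the transgenic line and the mutant, −0.44 between the transgenic line and wild type and 0.43 between the mutant and wild type. Over all genes tested in the deposited table these medians were −0.18, 0 and 0.13, and over all genes listed they were −0.05, 0 and 0.05. Of the 11 genes, 10 lay lower in the transgenic line than in the mutant, 9 lower than in wild type, and 7 higher in the mutant than in wild type. Of all genes above 0 in either genotype, 10876 of 17447 lay lower in the transgenic line than in the mutant. Against wild type, 7700 of 16410 lay lower in the transgenic line and 10777 of 17215 higher in the mutant. The comparisons share samples, and 6 of the 11 nlp genes are neighbours. The cnc medians in the same order were −0.51, 0 and 0, the fip medians −0.19, 0 and 0, and the fipr medians were all 0, with 13 to 17 of the 29 fipr differences being exactly 0.

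The caenacin genes cnc-11, cnc-1, cnc-5, cnc-4, cnc-3 and cnc-2 lie in this order within 7.6 kb of chromosome V (1442588 to 1450189). cnc-3 (R09B5.8) was at 143 FPKM (29.5 to 226) in the transgenic line, 120.4 FPKM (23.2 to 190.4) in the mutant and 182 FPKM (37.9 to 267) in wild type. cnc-4 (R09B5.9) was at 122 FPKM (22.4 to 205), 188 FPKM (40.4 to 286) and 83.6 FPKM (14.1 to 139.8) in the same order. cnc-2 (R09B5.3), the target of DBL-1 signalling, was at 40.9 FPKM (3.57 to 74.9), 108 FPKM (15.5 to 158) and 75.6 FPKM (9.51 to 118.9). cnc-4 and cnc-2 were both highest in the mutant, where cnc-3 was lowest. The lowest level was in wild type for cnc-4 and in the transgenic line for cnc-2.

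The other 3 genes of this group were nearly silent. cnc-1 was at 1.48 FPKM in the mutant and listed at 0 in both other genotypes, cnc-11 was below 1 FPKM everywhere, and cnc-5 was listed at 0 throughout. In the authors' deposited table the q-values for mutant against wild type were 0.621 for cnc-2, 0.424 for cnc-3 and 0.109 for cnc-4, where the level in the mutant was 2.24-fold that of wild type. Of the cnc genes elsewhere, cnc-10 (VK10D6R.1, chromosome V, 11183221 to 11183621) was at 8.19 FPKM (0 to 16.0) in the transgenic line, 38.3 FPKM (3.62 to 71.7) in the mutant and 48.4 FPKM (4.22 to 89.8) in wild type. As with nlp-25 and nlp-34, the transgenic line lay below both others, 4.68-fold lower than the mutant and 5.91-fold lower than wild type. cnc-8 was at 54.9, 78.7 and 67.9 FPKM, and cnc-7 was listed at 0 in the transgenic line and at 2.84 and 4.19 FPKM in mutant and wild type. cnc-6 was listed at 0 throughout and cnc-9 was below 1 FPKM.

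On chromosome X, members of 3 families are neighbours: fip-5, fipr-21 and cnc-8 lie in this order within 4.3 kb (10302587 to 10306889), all on the plus strand. fip-5 (F41E7.4) was at 35.7 FPKM (3.83 to 67.6) in the transgenic line, 45.3 FPKM (6.63 to 81.4) in the mutant and 73.6 FPKM (11.7 to 135.5) in wild type. It differed between genotypes by up to 2.06-fold, while its neighbour fipr-21 differed by up to 1.02-fold and cnc-8 by up to 1.43-fold. Of the other fip genes, fip-2 (T27E4.4) was at 70.6 FPKM (12.7 to 123) in the transgenic line, 69.0 FPKM (12.5 to 124) in the mutant and 52.2 FPKM (7.99 to 96.4) in wild type.

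The fip gene with the largest difference among those alone at their locus was fip-6 (F53B6.9). It was at 6.87 FPKM (0.241 to 13.3) in the transgenic line, 20.2 FPKM (2.17 to 37.9) in the mutant and 6.39 FPKM (0.241 to 12.5) in wild type. The mutant was thus 3.16-fold higher than wild type, with p = 0.0506 and q = 0.257 in the authors' deposited table, and the intervals overlapped. Its neighbour fipr-26 was at 0.52, 3.43 and 0.408 FPKM in the same order of genotypes and was not tested. fip-4 was at 4.53 FPKM (0 to 10.7), 11.5 FPKM (0 to 60.8) and 2.48 FPKM (0 to 4.77). Its locus is shared with smk-1, which was at 92.6, 97.2 and 83.7 FPKM. fip-1 was near 1 FPKM in every genotype, fip-3 was at 0.553 FPKM in wild type and listed at 0 otherwise, and fip-7 was listed at 0 throughout.

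Beside fipr-21, the fipr genes above 5 FPKM were fipr-1, fipr-2 and fipr-3, and each shares its locus in the files with another gene. fipr-1 (F23H12.8) was at 96.8 FPKM (0 to 375) in the transgenic line, 3.98 FPKM (0 to 13.9) in the mutant and 17.1 FPKM (0 to 95.3) in wild type. fipr-2 (F23H12.9), its neighbour, was at 35.4 FPKM (0 to 101), 12.2 FPKM (0 to 30.4) and 27.5 FPKM (0 to 78.6) in the same order. fipr-3 (F23D12.6, chromosome X) was at 24.2 FPKM (0 to 60.9), 5.44 FPKM (0.255 to 10.5) and 12.9 FPKM (0.765 to 24.7). All 3 were lowest in the mutant and highest in the transgenic line, in intervals that mostly reach 0. Their q-values for mutant against wild type were 0.803, 0.442 and 0.482 in the authors' deposited table. The locus of fipr-1 also holds F23H12.5, at 174 FPKM in the transgenic line, 176 in the mutant and 131 in wild type, while the other gene at the loci of fipr-2 and fipr-3 was at 1.26 FPKM or less.

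The largest run of fipr genes, fipr-4 to fipr-9 within 19.1 kb of chromosome V (10221011 to 10240160), was nearly silent. Its highest level was 1.31 FPKM in the transgenic line, 1.90 FPKM in the mutant and 2.12 FPKM in wild type. The runs fipr-18 to fipr-20 on chromosome III, fipr-14 and fipr-15 on chromosome IV, and fip-7, fipr-27 and fipr-28 on chromosome IV were listed at 0 except for fipr-20, at 2.12 FPKM in the mutant. fipr-22, fipr-23 and fipr-24 on chromosome I were below 1 FPKM in the mutant and listed at 0 in both other genotypes. The locus of fipr-24 holds 13 other genes. The highest of them, pry-1, was at 34.3 FPKM in the transgenic line, 35.4 in the mutant and 28.5 in wild type. In the mutant fipr-11 was at 2.59 FPKM and fipr-13 at 0.885 FPKM, against 0 for both in wild type. In the transgenic line fipr-11 was listed at 0 and fipr-13 at 0.336 FPKM. The locus of fipr-10 and fipr-11 also holds mec-9, at 6.36 FPKM in the transgenic line, 8.22 in the mutant and 7.43 in wild type. fipr-10, fipr-12, fipr-16, fipr-17 and fipr-25 were listed at 0 throughout, and fipr-29 stayed below 1. Whether near-identical copies share reads was not examined here, so low values of single fipr genes are uncertain. In all, 9 of the 58 genes share their locus in the files with another gene.

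**Figure D4:**
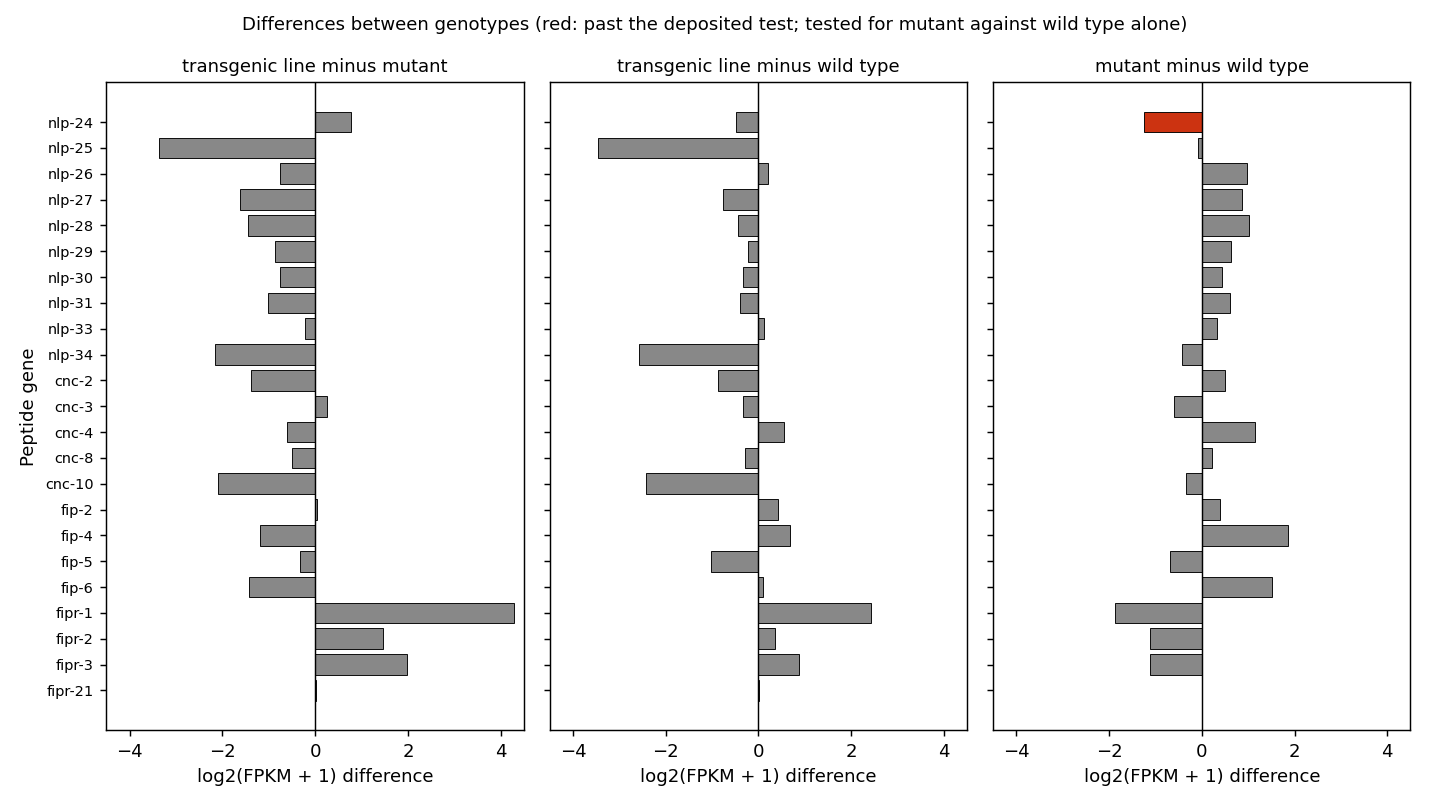
Difference in log2(FPKM + 1) (horizontal axes) of the 23 peptide genes that reached 5 FPKM, for transgenic line minus mutant, transgenic line minus wild type and mutant minus wild type. The single red bar is nlp-24, the gene past the deposited test, at −1.24, and the longest bars to the left, for nlp-25, are −3.37 and −3.45.

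The comparisons with the transgenic line ask how far larvae with hsf-1::gfp resemble the mutant and wild type, and the deposited tables used here give no test for them. Intervals of the transgenic line and wild type were apart for 0 peptide genes and for 0.685% of 12563 genes, and those of the transgenic line and the mutant for 0 peptide genes and for 1.37% of 13071 genes. By size alone, with a ratio of at least 2 and 5 FPKM or more in either genotype, 1 peptide gene (fipr-1) was higher and 4 (nlp-25, nlp-34, cnc-10 and fip-5) were lower in the transgenic line than in wild type. The same rule took 12.7% of 9641 genes as higher and 12.9% as lower, beside 4.55% and 18.2% of the 22 peptide genes that reached the minimum.

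Against the mutant, 3 peptide genes (fipr-1, fipr-2 and fipr-3) were higher in the transgenic line and 9 were lower. The 9 were nlp-25, nlp-27, nlp-28, nlp-31, nlp-34, cnc-2, cnc-10, fip-4 and fip-6, which is 39.1% of the 23 that reached the minimum. The rule took 14.8% of 9873 genes as lower and 13% as higher. For mutant against wild type it took 5 peptide genes as higher (nlp-26, nlp-28, cnc-4, fip-4 and fip-6) and 4 as lower (nlp-24, fipr-1, fipr-2 and fipr-3), beside 13.9% and 11.6% of 9992 genes. nlp-25, nlp-34 and cnc-10 were the only ones of the 23 peptide genes of 5 FPKM or more to be at least 4-fold lower in the transgenic line than in both the mutant and wild type, a pattern found in 1.26% of 10298 genes with that minimum. Below the minimum, cnc-7 was listed at 0 in the transgenic line. The ratio rules and this pattern were chosen after the values were seen.

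The pathways upstream of the peptide genes were read from lists. In the authors' deposited table, 3 of 17 genes of the epidermal p38 cascade and its regulators rose in the mutant against wild type. Of the 17, 14 missed the threshold and 0 fell. Of all 12615 tested genes, 2.93% rose and 2.9% fell. tir-1, for the SARM-like adaptor at the head of the cascade, was at 96.4 FPKM in the transgenic line, 161 FPKM (77.5 to 245) in the mutant and 63.6 FPKM (24.6 to 103) in wild type. It rose 2.54-fold in the mutant, with q = 0.00249 in the authors' deposited table. nipi-3, for a Tribbles-like kinase needed for nlp-29 induction by infection, was at 37.2 FPKM, 73.8 FPKM (38.4 to 109) and 29.3 FPKM (13.1 to 45.5), and rose 2.52-fold with q = 0.00249 in the authors' deposited table. The third was rack-1, which encodes a scaffold protein that is also part of the ribosome, at a locus shared by 2 genes. It was at 6059.9 FPKM in the transgenic line, 6734 in the mutant and 4002 in wild type (q = 0.00616 in the authors' deposited table).

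Other genes of the cascade did not pass. The receptor gene dcar-1 was at 68.3 FPKM in the transgenic line, 118 in the mutant and 71.4 in wild type, with q = 0.145 in the authors' deposited table. The p38 kinase gene pmk-1 was at 22.9, 44.8 and 27.1 FPKM, with q = 0.32, and the transporter-like gene snf-12 was at 17.4, 5.53 and 5.35 FPKM, with q = 0.968 in the authors' deposited table. The STAT gene sta-2 was at 27.4, 28.5 and 15.2 FPKM with q = 0.474, at a locus shared by 3 genes, and the epidermal GATA factor gene elt-3 was at 107, 101 and 123 FPKM with q = 0.688 in the authors' deposited table. Over the 17 genes the log2 difference had a median of 0.52 for mutant against wild type, where that of all tested genes was 0.13. The same median was 0.71 over the DBL-1 list, 0.37 over epidermis markers and 0.43 over the tested col genes, which encode cuticle collagens. It was −0.02 over the osmotic stress list and −0.10 over the annular furrow collagens. Whether the cascade differs from these lists was not tested.

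In the authors' deposited table, 1 of 12 genes of the DBL-1 pathway rose and 0 fell, beside 2.93% and 2.9% of tested genes. The other 11 missed the threshold. The one that rose was lon-1, a gene that DBL-1 signalling is known to repress, at 68.0 FPKM in the transgenic line, 102 FPKM (39.2 to 164) in the mutant and 40.3 FPKM (8.88 to 71.8) in wild type, with q = 0.0148. The ligand gene dbl-1 was at 23, 26.4 and 14.2 FPKM, with q = 0.216, and the Smad gene sma-3 at 17.8, 27.5 and 12.8 FPKM, with q = 0.177 in the authors' deposited table. Of 10 osmotic stress genes, 1 rose, the inositol transporter gene hmit-1.1, at 3.88 FPKM in the transgenic line, 10.05 FPKM (2.28 to 17.8) in the mutant and 1.97 FPKM (0 to 3.90) in wild type (q = 0.0437 in the authors' deposited table). None of the 6 annular furrow collagen genes passed (0 in either direction in the authors' deposited table, Cuffdiff, and 0 at an unadjusted p under 0.05), and their summed level was 1754, 1441 and 1481 FPKM in transgenic line, mutant and wild type.

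**Figure D5:**
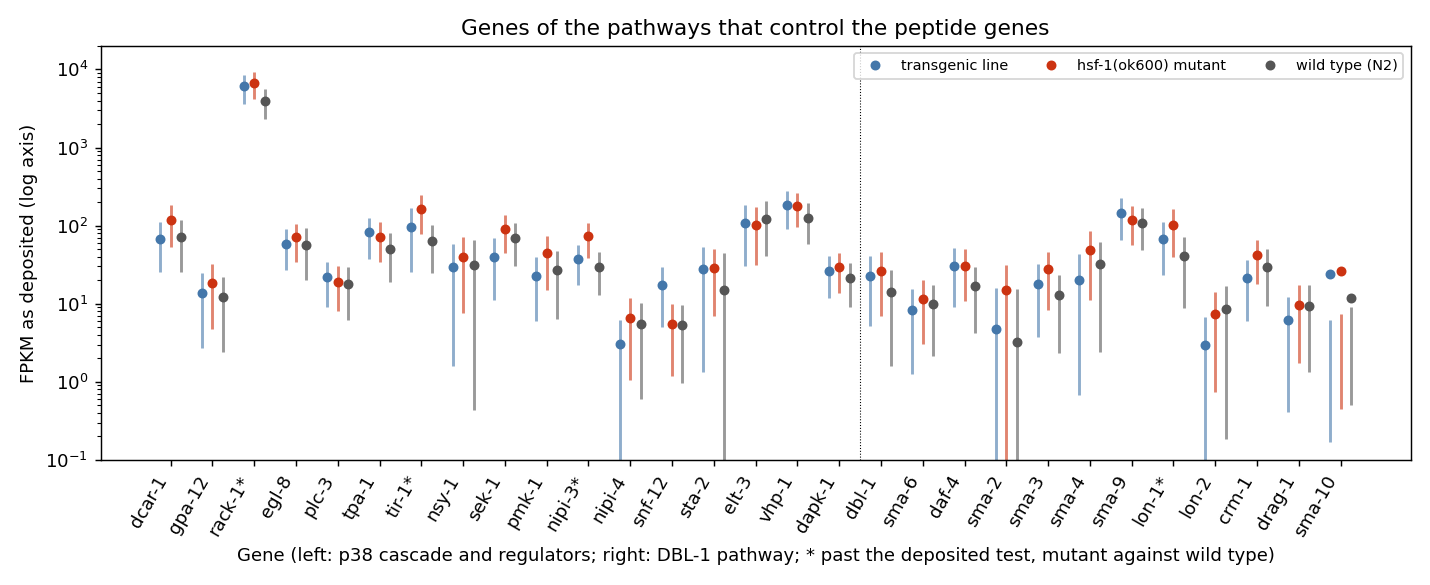
Deposited FPKM (log axis) with deposited intervals of the 17 genes of the p38 cascade and regulators and of 12 DBL-1 pathway genes, with the transgenic line left, the mutant in the middle and wild type right. Asterisks mark rack-1, tir-1, nipi-3 and lon-1, which are highest in the mutant, and the values of sma-10 lie above their own intervals.

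Some tissue markers passed the same test, by which 2.93% of all tested genes rose and 2.9% fell. In the mutant 2 of 10 epidermis markers rose (mup-4 and rol-6) and 0 fell by the authors' deposited table, and their summed level was 1388 FPKM in the transgenic line, 1513 in the mutant and 1017 in wild type. By the same rule 3 of 8 neuron markers rose and 0 fell, with sums of 1208, 1771 and 1119 FPKM. Of 7 intestine markers 2 fell (asp-1 and cpr-1) and 0 rose, with sums of 3907, 2029.7 and 3413 FPKM. Of these sums, asp-1 alone gave 2203, 852 and 2003 FPKM. Without passing, act-5 and elt-7 lay lower in the mutant than in wild type, elt-2 and ifb-2 lay higher, and ges-1 was nearly level. The part of these marker differences in the levels of the peptide genes was not tested. Beside the 24 tested peptide genes with 0 risers and 1 fall, the 31 tested spp, lys, ilys, abf and thn genes, which encode saposin-like proteins, lysozymes and other defence proteins, had 3 risers and 6 falls in the authors' deposited table. The 88 tested col genes, for cuticle collagens of the same epidermis, had 6 risers and 1 fall in the authors' deposited table, and whether these lists differ from the peptide genes was not tested.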

How the data were processed

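Whole L2 larvae of 3 genotypes were profiled by RNA-seq in 9 libraries, grouped by the sample titles. FPKM with lower and upper bounds were deposited by the authors as 1 value per gene and genotype, per the file headers, after TopHat2 and Cuffdiff on ce10, per the submitters' processing notes. No source used here names versions, annotation, strand setting or depth. Libraries were amplified with a Nugen Ovation kit, per the labels' protocols. The p-values and q-values for the mutant against wild type were deposited by the authors, and a q of at most 0.05 with at least 1 FPKM was called. Nothing in the labels says that libraries of a genotype came from separate cultures, so these p-values measure the spread between libraries.

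Ratios are of FPKM as deposited, and log2 differences of FPKM with a pseudocount of 1 understate changes of low genes. Medians cover all members of a family. Starts were raised by 1, taking those in the files to count from 0. This rests on 2204 of 15876 genes whose RefSeq length equals end minus start, against 223 for that plus 1, in another build, so a printed start may be off by 1. Symbols of all 58 genes matched RefSeq (WBcel235), and strands and lengths came from Ensembl release 115. Neighbours lie within 20 kb. The code of the rules was checked on simulated tables, in which changed genes were given a low q and intervals lay evenly about the value. This does not measure how well the rules find true changes in the deposited values. Python 3.11.15 and pandas 2.3.3 were used. Alternatives were q, FPKM minimum, fold, interval, pseudocount, centring, deposited test-table FPKM and unshared loci. Every peptide gene could be named, and of the pathway lists the called genes plus dcar-1, tir-1, pmk-1, nipi-3, snf-12, sta-2, elt-3, dbl-1 and sma-3. Outside that rule, sma-10 is named for its values above its own intervals. The members and lists were chosen with earlier results of these data known.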

Additional observations from a re-analysis of the deposited data

How the results depend on the processing

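No paired analysis was possible because the tables hold 1 value per genotype, and leaving out replicates could not be run for the same reason. The fall of nlp-24 held at a q of at most 0.01, with no FPKM minimum, with a minimum of 5 and when the log2 change also had to reach 1 in size. It was lost (0 called) when intervals had to be apart, and when loci with other genes were left out, since nlp-24 shares its locus. Under intervals that had to be apart, calls were 0 for the p38, DBL-1 and osmotic lists, and at a q of at most 0.01 they were 0 for the DBL-1 and osmotic lists.

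With a ratio of at least 2, a minimum of 1 FPKM gave 5 higher and 15 lower of 32 peptide genes for transgenic line against mutant. For mutant against wild type it gave 10 higher and 7 lower of 33. A ratio of at least 3 gave 4 lower for transgenic line against mutant, and 2 higher and 1 lower for mutant against wild type. A ratio of at least 1.5 gave 2 higher for transgenic line against wild type and 8 higher for mutant against wild type. Among genes alone at their locus, 0 were higher in the transgenic line than in the mutant, 0 higher than in wild type and 0 lower in the mutant than in wild type. The shares of all genes at these changed settings were not computed. The counts therefore do not show how the peptide genes compare with other genes. Restricted to genes of at least 1 FPKM in either genotype compared, the cnc median was −1.31 for transgenic line against mutant and −0.61 against wild type. The fipr median was −1.06 for mutant against wild type. This filter also keeps genes that reach 1 FPKM only in the genotype where they are high. The −1.31 is the value of cnc-1, at 1.48 FPKM in the mutant and listed at 0 in the transgenic line. The −1.06 is that of fipr-5, at 0.216 FPKM in the mutant and 1.53 FPKM in wild type.

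The other 140 alternatives for family medians and counts stayed within 1.5-fold. The ratio rules and their alternatives were chosen after seeing the data. Of 330 alternatives for single genes, 34 moved by more than 1.5-fold, all with a pseudocount of 0.1 or 0.01 and all in 9 genes of at most 4.19 FPKM, and 4 changed sign, all on centring and all of near-zero differences (3 of fipr-21 and 1 of fip-2). Centring moved no comparison by more than 0.07. Depth is unknown, which limits what a value of 0 means.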

Other observations

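The deposited bounds of many low genes were whole multiples of 1 step per gene, within the 6 digits of the files. No source used here says what a step stands for. In 3874 genes alone at their locus, with 1 annotated transcript of at least 1000 bases, the step multiplied by the exonic length in kb had a median of 0.109 (quartiles 0.106 and 0.125), so it was close to a fixed amount per length. The step was taken as the largest value that divides all bounds of a gene, so with few bounds above 0 it can be a multiple of a smaller unit. For cnc-7 only the upper bounds in mutant and wild type, 5.42 and 8.12 FPKM, are above 0. The value found there, 2.71 FPKM, is larger for its 278 bases than the amount per length above, so its steps were not counted. Some low peptide genes were at few of their own steps, among them fipr-26. With a step of 0.391 FPKM, fipr-26 was at 1.33 steps in the transgenic line, 8.76 in the mutant and 1.04 in wild type. Many more steps were found for nlp-28 and nlp-34. nlp-28, with a step of 0.317 FPKM, was at 21.3, 63.8 and 30.1 steps in the same order. nlp-34, with a step of 0.404 FPKM, was at 53.3, 245 and 329 steps. For nlp-34 and nlp-28 the intervals are therefore far wider than a single step.

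Peptide genes of the same chromosomal group did not share 1 level. Of the 58 genes, 42 lie in 13 groups of 2 or more with gaps of at most 20 kb. The 3 groups in which several genes reached 5 FPKM with 3 members or more were those of nlp-29, cnc-2 and fipr-21, and in that of cnc-2 genes at 0 or below 2 FPKM lie beside genes at 75.6 FPKM or more in wild type.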
